A study of Mus musculus with 6 samples.

Results

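The 9 interferon-induced genes described here are Tgtp2, Ifit1, Ifit3, Isg15, Irf7, Irf9, Stat2, Bst2 and Oasl2, of 18160 genes in the table. They were listed by name, and the question put to them was whether Tgtp2 moves with the wider interferon response or alone. Tgtp2 was chosen by its normalized counts in these 6 samples, in which it was higher in heterozygotes, and the others were set beside it with their values known. The difference between genotypes is therefore given for these 9 genes as a description. All 9 had a mean of at least 10 normalized counts and entered the model fitted on all genes. The samples are mRNA of adult prefrontal cortex (postnatal day 56, strain C57BL/6J), 3 wild type and 3 labelled heterozygous in a series on Cyfip2. The CYFIP2 protein belongs to the WAVE complex, which drives actin branching. The labels give neither the kind of mutant allele, nor the animals' sex, nor say whether each sample is a different animal, so p-values measure only the spread between these samples.

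Interferons are secreted proteins of antiviral defence. Type I interferons bind the receptor IFNAR, whose kinases JAK1 and TYK2 phosphorylate STAT2. With IRF9 it forms part of the complex ISGF3, which binds the interferon-stimulated response element (ISRE) upstream of target genes. Interferon gamma acts through the gamma-activated sequence (GAS) and is the main inducer of the immunity-related GTPases. In the brain, microglia, astrocytes, endothelial cells and neurons all carry interferon receptors, and a low level of interferon signalling exists without infection.

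Values are normalized counts, whose totals per sample were between 36.4 M and 37.1 M (M, megacounts or megareads). The smallest values implied depths from 27.1 M to 48.0 M reads, with wild-type sample 1 the deepest and wild-type sample 3 the shallowest; these depths are estimates. Cyfip2 checked the labels: it ranged from 43174 to 45627 in wild-type samples and from 28356 to 29567 in heterozygous ones. Neuronal markers of the cortex were present in every sample, among them Slc17a7 at 47790 to 55120 normalized counts. Of the 6 striatal markers listed, Drd1 and Adora2a were at 215 to 284 and 70.3 to 143. The summed level of the 6 was 5452 to 5916 in wild-type and 4574 to 4719 in heterozygous samples, without overlap. In bulk tissue, fewer cells of a type and less RNA per cell cannot be told apart.

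Upstream sequences were searched for 2 motifs, the ISRE of type I and the GAS of gamma interferon targets. The ISRE core was spelled GAAA, 2 bases of any kind, GAAA, and GAS was spelled TTC, 3 bases of any kind, GAA. Each was sought on both strands in the 250 bases before each RefSeq start (GRCm38.p6). All 9 genes matched the RefSeq table. An ISRE core lay upstream of 6 of the 9 genes, against 3.46% of all 27025 genes, and GAS upstream of 2, against 8.13%. Isg15 held 3 ISRE cores, Ifit1, Ifit3 and Bst2 held 2 each, and Tgtp2 and Stat2 held 1 each. These letters were not found in this window for Irf7, Irf9 and Oasl2. A match is a description of the letters, not of binding. The stretches are printed 5′ to 3′ along the gene's strand with the motif letters in capitals, because they set the Tgtp2 start beside those of classical ISRE genes and of its near-copy Tgtp1. In Ifit1, Ifit3 and Stat2 the ISRE core reads on the opposite strand. In Isg15 the 3 cores overlap each other, and in Bst2 the GAS match overlaps the first of 2 overlapping ISRE cores.
Tgtp2, chr11:49064243-49064312, minus strand: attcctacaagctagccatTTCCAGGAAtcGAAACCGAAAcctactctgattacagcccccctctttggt
Tgtp1, chr11:48992284-48992353, minus strand: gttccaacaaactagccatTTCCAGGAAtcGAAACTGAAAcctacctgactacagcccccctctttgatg
Isg15, chr4:156200845-156200926, minus strand: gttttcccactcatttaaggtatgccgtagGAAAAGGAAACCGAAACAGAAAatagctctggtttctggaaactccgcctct
Bst2, chr8:71537557-71537632, minus strand: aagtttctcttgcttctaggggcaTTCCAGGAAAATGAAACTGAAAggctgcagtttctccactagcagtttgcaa
Ifit1, chr19:34640755-34640843, plus strand: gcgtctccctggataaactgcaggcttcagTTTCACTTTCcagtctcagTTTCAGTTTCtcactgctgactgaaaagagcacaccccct
Ifit3, chr19:34583343-34583446, plus strand: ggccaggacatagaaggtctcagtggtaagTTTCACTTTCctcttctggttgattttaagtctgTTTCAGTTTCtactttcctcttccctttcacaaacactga
Stat2, chr10:128270248-128270315, plus strand: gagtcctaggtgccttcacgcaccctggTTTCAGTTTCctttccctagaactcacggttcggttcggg

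Tgtp2 and Tgtp1 carried the same arrangement, GAS followed by an ISRE core. Within the 10 letters of the ISRE core they differed by C6T, counted from 1 at its first base with Tgtp2 first. The motif lay 70 bases before the start in Tgtp2 and 77 in Tgtp1. Over 100 bases around and downstream of the motif, 91.9% of the aligned bases were identical, and over the 100 bases further upstream 62.5%.

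Tgtp2 was the gene with the largest difference between genotypes among the 9. Tgtp2 (ENSMUSG00000078921) encodes a T-cell-specific guanine triphosphate-binding protein of the immunity-related GTPase family, which coats the vacuoles of intracellular parasites. The gene spans bases 49057194 to 49064206 of chromosome 11 on the minus strand (GRCm38). Normalized counts of Tgtp2 were 36.6, 26.5 and 23.2 in wild-type samples 1, 2 and 3, and 80.0, 41.1 and 47.9 in heterozygous samples 1, 2 and 3. Every heterozygous value lay above every wild-type value, and heterozygous sample 1 was far above the other samples. Group means were 28.8 ± 6.96 and 56.3 ± 20.8 (SD, n = 3 each), a ratio of 1.96. The log2 fold change on the log2(value + 1) scale was 0.91 ± 0.29 (SE), with an unadjusted 95% interval of 0.27 to 1.55. It was 0.63 without heterozygous sample 1, the lowest value on leaving out any sample. The gene's values corresponded to about 17.0 to 47.5 reads in wild-type and 39.2 to 80.8 reads in heterozygous libraries, if its scaling followed that of the smallest values.

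In the model fitted on all genes, 0 of the 9 passed the limma-trend threshold (adjusted p of 0.05), which 0.0132% of all genes passed. Of the 15151 genes fitted, 0.271% had a log2 fold change at least as high as that of Tgtp2. Heterozygous samples lay wholly above wild type in 2 of the 9, Tgtp2 and Ifit3, where 5.15% of all genes did, and wholly below in 0, where 5.3% did. The genotypes overlapped in the other 7.

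**Figure D1:**
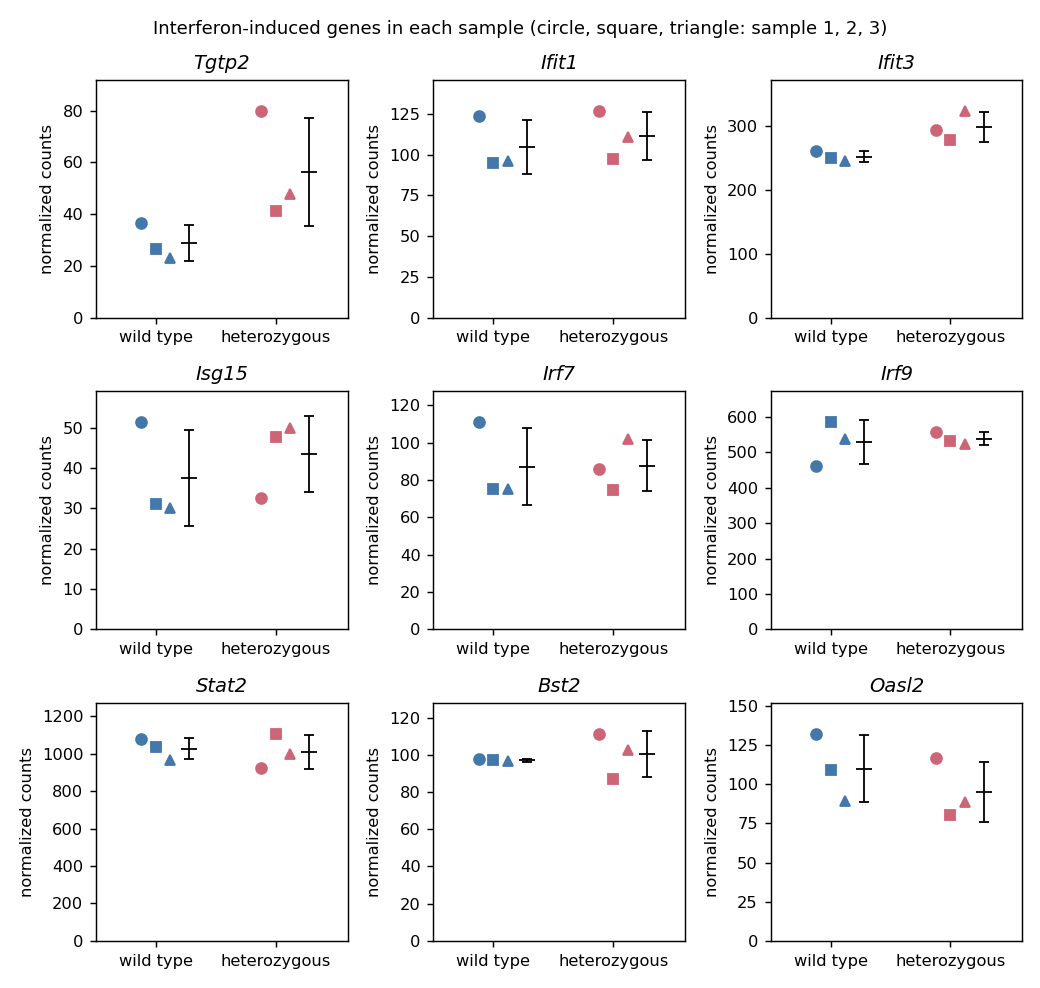
Normalized counts of the 9 genes in each sample, with 3 wild-type (blue) and 3 heterozygous (red) samples; circle, square and triangle are samples 1, 2 and 3, and the black marks are the mean with the SD. Tgtp2 and Ifit3 are the panels in which the red points all lie above the blue ones, and the circle of wild type (sample 1) is the highest blue point in 8 panels.

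The signalling genes Stat2, Irf9 and Irf7 each overlapped between genotypes. Stat2, the STAT subunit particular to ISGF3, was at 1078, 1035 and 966 in wild-type samples and 926, 1106 and 998 in heterozygous samples. The highest and the lowest of the 6 values were both heterozygous, and the log2 fold change was -0.03 ± 0.08 (SE). Irf9, the DNA-binding subunit of ISGF3, was at 462, 585 and 538 in wild-type samples and 558, 533 and 524 in heterozygous samples. Here the heterozygous values lay inside the wild-type range, at a log2 fold change of 0.03 ± 0.10 (SE). Irf7, the transcription factor that amplifies type I interferon production, was at 111, 75.2 and 75.1 against 85.9, 74.9 and 102. Wild-type sample 1 held the highest Irf7 value of all, and the log2 fold change was 0.02 ± 0.20 (SE). With each sample left out in turn, the log2 fold change took both signs in each of these genes: -0.09 to 0.04 in Stat2, -0.06 to 0.11 in Irf9 and -0.09 to 0.21 in Irf7, where the highest was without wild-type sample 1.

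The IFIT genes encode tetratricopeptide-repeat proteins, and IFIT1 binds viral RNA that lacks the cap methylation of host RNA. Ifit3 was at 262, 250 and 246 in wild-type samples and 295, 279 and 325 in heterozygous samples. All heterozygous values were higher and the means were 253 ± 8.52 and 299 ± 23.3 (SD, n = 3 each). The log2 fold change of Ifit3 was 0.24 ± 0.10 (SE), and it was 0.18 to 0.29 when each sample was left out in turn. Ifit1 was at 124, 94.7 and 95.8 in wild-type samples and 127, 97.1 and 110 in heterozygous samples. In each genotype sample 1 was the highest, and the log2 fold change of Ifit1 was 0.09 ± 0.16 (SE). With wild-type sample 1 left out it was 0.22, with heterozygous sample 2 left out 0.19, and with heterozygous sample 1 left out -0.0054.

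Isg15, the ubiquitin-like modifier that is joined to proteins during the response, was at 51.3, 31.01 and 30.2 in wild-type samples and 32.7, 47.7 and 50.1 in heterozygous samples. The highest value was that of wild-type sample 1, while heterozygous sample 1 lay near the 2 low wild-type samples. Its log2 fold change was 0.23 ± 0.27 (SE), and 0.47 when wild-type sample 1 was left out, 0.41 when heterozygous sample 1 was, and 0.10 when wild-type sample 3 was. Oasl2, a 2′-5′ oligoadenylate synthetase-like gene, was at 132, 109 and 89.1 in wild-type and 117, 80.3 and 88.3 in heterozygous samples. Its mean was lower in heterozygotes, at a log2 fold change of -0.21 ± 0.19 (SE), which ran from -0.36 without heterozygous sample 1 and -0.35 without wild-type sample 3 to -0.09 without heterozygous sample 2 and -0.07 without wild-type sample 1. Bst2, which encodes tetherin, the membrane protein that holds budding virus on the cell, was at 97.8, 97.0 and 96.5 against 111, 86.9 and 103. The wild-type values were almost equal, with heterozygous values on either side of them, and the log2 fold change was 0.04 ± 0.14 (SE), or -0.04 without heterozygous sample 1 and 0.14 without heterozygous sample 2.

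Without Tgtp2, the 8 genes had log2 fold changes between -0.21 and 0.24 and a median of 0.04, beside a median of 0.002 over all genes fitted. With Tgtp2, the median of the 9 was also 0.04, with 7 above and 2 below wild type, where 50.8% of all genes were above. The median of the 9 was 0.21 with wild-type sample 1 left out and 0.14 with heterozygous sample 2 left out. The unadjusted interval of Tgtp2 reached down to 0.27, and those of 5 of the other 8 genes reached up to that value or above. Whether Tgtp2 differed from each of the others was not tested.

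**Figure D2:**
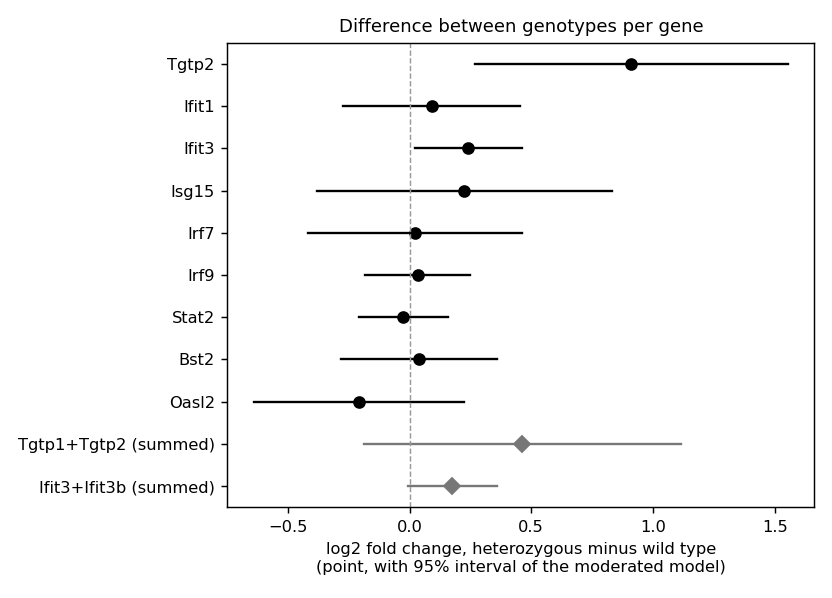
Log2 fold change of each of the 9 genes (black points) with its unadjusted 95% interval, and of Tgtp1 with Tgtp2 and Ifit3 with Ifit3b after summing (grey diamonds). Tgtp2 stands at 0.91 and the other 8 genes between -0.21 and 0.24; the sum of Tgtp1 and Tgtp2 is at 0.46 with an interval that includes 0.

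Compared per length, as mean normalized counts per kilobase of annotated exon, Tgtp2 was the lowest of the 9 in wild-type cortex. Stat2 was highest at 173 ± 9.45, then Ifit3 at 145 ± 4.88, Bst2 at 108 ± 0.773 and Irf9 at 98.1 ± 11.5 (SD, n = 3 each). Isg15 followed at 49.6 ± 15.8, Ifit1 at 39.4 ± 6.18, Irf7 at 23.1 ± 5.46, Oasl2 at 17.2 ± 3.37 and Tgtp2 at 9.79 ± 2.37. Bst2 and Irf9, Isg15 and Ifit1, and Irf7 and Oasl2 did not differ beyond their spread. In heterozygous samples Tgtp2 was at 19.2 ± 7.07 per kilobase and Oasl2 at 14.9 ± 3.02, which also lay within the spread. Exon lengths were the union over all annotated transcripts, so a gene with long rare transcripts is placed too low.

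The genes that did not overlap between genotypes were also the ones that share most of their sequence with another gene. Of the 31-base words in the annotated transcripts of Tgtp2, 90.5% also occurred in transcripts of other genes, 89.2% in those of Tgtp1. For Ifit3 the share was 61.8%, all of it with Ifit3b. For the other 7 genes it was at most 12.8%, in Isg15, and it was 0 in Bst2 and Irf7. How the authors' quantification divided such reads is not stated in the sources used, so the split between copies is uncertain.

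Tgtp1, 63.0 kb from Tgtp2 on the same strand, overlapped between genotypes. Its level was 56.7, 24.5 and 25.3 in wild-type samples and 34.7, 20.2 and 39.7 in heterozygous samples. Wild-type sample 1 was highest, and the log2 fold change was -0.11 ± 0.37 (SE; limma-trend adjusted p = 0.99). The direction turned to 0.27 without wild-type sample 1 and to 0.17 without heterozygous sample 2, and the medians were 25.3 in wild-type and 34.7 in heterozygous samples. The sum of Tgtp1 and Tgtp2 was 93.2, 51.1 and 48.5 in wild-type samples and 115, 61.2 and 87.5 in heterozygous samples. In the sum the genotypes overlapped, since wild-type sample 1 lay above heterozygous samples 2 and 3, and the log2 fold change was 0.46 ± 0.29 (SE), against 0.91 for Tgtp2 counted alone. Tgtp2 made up 39.2%, 51.9% and 47.8% of the sum in wild-type samples and 69.7%, 67.1% and 54.7% in heterozygous samples, without overlap. Since Tgtp2 was chosen for being higher in heterozygotes, its share of the sum is not independent of that choice. The overlap of the sums came from wild-type sample 1 alone, and without it the log2 fold change of the sum was 0.76. That sample was singled out after the values were seen, so separation without it is no support for a difference. Leaving out other samples, the log2 fold change of the sum was 0.25 (without heterozygous sample 1) to 0.70 (without heterozygous sample 2), and 0.30 without wild-type sample 3.

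Ifit3 and its copy Ifit3b were summed in the same way. Ifit3b was at 139, 161 and 163 in wild-type samples and 160, 157 and 165 in heterozygous samples, with overlap. The sum of Ifit3 and Ifit3b was 401, 411 and 409 against 455, 436 and 489, and the genotypes did not overlap. Its log2 fold change was 0.17 ± 0.08 (SE), and 0.13 to 0.21 when each sample was left out. Ifit3 took 65.3%, 60.9% and 60.1% of the sum in wild-type samples and 64.9%, 63.9% and 66.4% in heterozygous samples. These shares overlapped through wild-type sample 1 only, as did the sums of Tgtp1 and Tgtp2. That sample was singled out after the values were seen, and fewer samples separate more easily. Separation without it is therefore no support for a difference.

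**Figure D3:**
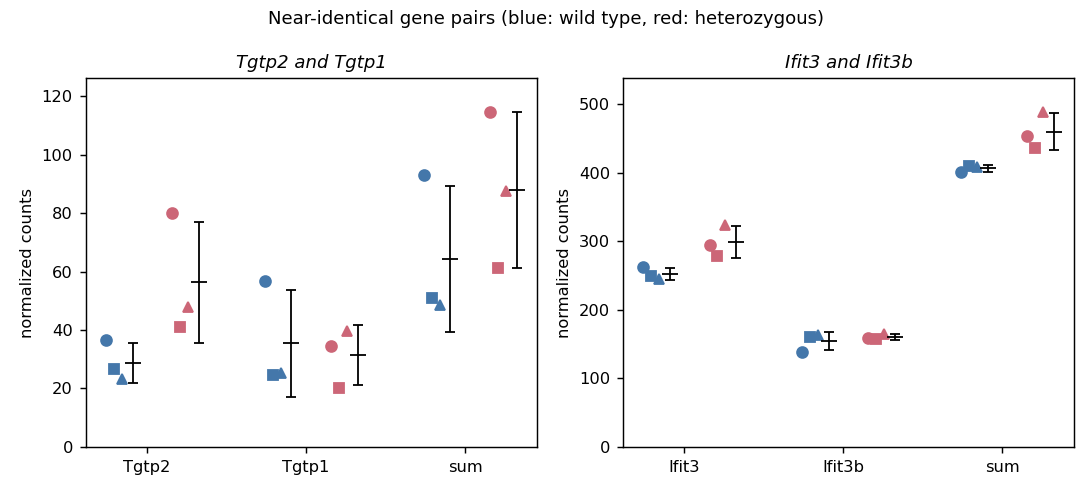
Normalized counts of Tgtp2, Tgtp1 and their sum (left) and of Ifit3, Ifit3b and their sum (right) in each sample, with symbols and bars for samples 1 to 3 and the mean with SD as in the plot of all 9 genes. In the sum of Tgtp1 and Tgtp2 the wild-type circle at 93.2 lies above 2 heterozygous points, while all heterozygous sums of Ifit3 and Ifit3b lie above 411.

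Tgtp2 belongs to a cluster of interferon-inducible GTPase genes of 235 kb, from Irgm1 to Ifi47, on the chromosome that also carries Cyfip2. Tgtp2 lies 2.74 Mb beyond the end of Cyfip2. Gm5431, a GTPase gene of the cluster, was at 17.5, 14.1 and 13.6 in wild-type samples and 23.8, 20.6 and 23.3 in heterozygous samples. Gm12185 was at 6.34, 6.26 and 6.84 against 9.28, 12.3 and 10.01, below the mean of 10 needed for the fit. In Gm5431 and Gm12185 all heterozygous values were higher, and 47.2% and 28.5% of their 31-base words occurred in other genes. For Gm5431 the log2 fold change was 0.56 ± 0.27 (SE; limma-trend adjusted p = 0.95).

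The rest of the cluster overlapped between genotypes. Irgm1, a regulatory GTPase of autophagy, was at 382, 359 and 396 against 336, 354 and 362, a log2 fold change of -0.11 ± 0.09 (SE). Ifi47 was at 26.0, 15.4 and 25.1 against 27.5, 31.1 and 24.0, a log2 fold change of 0.33 ± 0.28 (SE). The predicted GTPases 9930111J21Rik1 and 9930111J21Rik2 had log2 fold changes of 0.01 ± 0.25 and -0.09 ± 0.09 (SE). The share of 31-base words found in other genes was 88.3% in 9930111J21Rik1, 84.4% in Tgtp1, 78.4% in Psme2b and 69.5% in 9930111J21Rik2. It was 5.40% in Olfr56, 3.32% in Ifi47 and 2.20% in Irgm1. Genes that overlapped between genotypes thus had high as well as low shares. Of the 8 fitted genes between Cyfip2 and the cluster, 0 lay wholly above wild type and 2 (25%) wholly below, where 5.15% and 5.3% of all genes did.

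Most other GTPases of the immunity-related and guanylate-binding families overlapped between genotypes. Of the 25 such genes in the table besides Tgtp2, 19 were fitted, 11 above and 8 below wild type, and 0 passed the threshold in limma-trend. Wholly above wild type were 2 (Gm5431 and Gbp9, 10.5%) and wholly below 1 (Irgc1, 5.26%), where 5.15% and 5.3% of all genes did. Gbp2, a guanylate-binding protein gene, was at 112, 77.2 and 98.8 in wild-type and 132, 95.3 and 135 in heterozygous samples, with overlap. Gbp9 was at 137, 164 and 151 against 175, 170 and 167, with all heterozygous values higher and a log2 fold change of 0.18 ± 0.12 (SE). The other guanylate-binding genes Gbp3, Gbp4, Gbp5, Gbp7 and Gbp11 had log2 fold changes of 0.07 to 0.21. Igtp and Irgm2 on chromosome 11, outside the cluster, were at -0.07 ± 0.11 and 0.05 ± 0.15 (SE). Iigp1, F830016B08Rik and Gvin1 had log2 fold changes of -0.08, -0.08 and -0.04. Irgc1, a member of the family outside the interferon-inducible group, was at 14.8, 19.8 and 9.36 against 7.11, 7.33 and 5.74, with all heterozygous values lower (log2 fold change -0.97 ± 0.40, SE; limma-trend adjusted p = 0.95).

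The wider interferon pathway was then read from 183 further genes listed by role, of which 167 were in the table and 142 were fitted. Of these, 0 passed the limma-trend threshold and the smallest adjusted p was 0.85. An unadjusted p under 0.05 was found for 7 of the 142, and for 5.07% of all genes. Of the 142, 81 were above wild type and 61 below, and the median log2 fold change was 0.03. Heterozygous samples lay wholly above wild type in 12 (8.45%) and wholly below in 8 (5.63%), against 5.15% and 5.3% of all genes.

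Of the interferon ligand genes listed, 0 of 12 were in the table. At the receptor, Ifnar2, the chain of the type I receptor that binds STAT2, was at 469, 466 and 436 in wild-type samples and 522, 523 and 499 in heterozygous samples. Ifnar2 was higher in every heterozygous sample, at a log2 fold change of 0.17 ± 0.08 (SE; limma-trend adjusted p = 0.95). The receptor and JAK-STAT list had 6 of 13 genes above wild type and a median of -0.03.

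Negative regulators had 6 of 8 genes above wild type and a median of 0.03; Socs3, a feedback inhibitor of JAK kinases, was at 0.14 ± 0.14 and Trim27 at 0.06 ± 0.09 (log2 fold change ± SE). Nucleic acid sensors and adaptors had 5 of 14 above and a median of -0.03. Among them Aim2, a sensor of cytosolic DNA, was at 70.1, 123 and 90.5 in wild-type and 48.1, 74.2 and 60.0 in heterozygous samples, with overlap (log2 fold change -0.61 ± 0.23, SE; limma-trend adjusted p = 0.95). Ikbke, a kinase upstream of IRF3 and IRF7, was at 0.33 ± 0.22 (log2 fold change ± SE). The other interferon regulatory factors and their binding proteins had 2 of 9 above and a median of -0.05, with Irf8, a factor of microglia, at -0.29 ± 0.20 and Irf1 at 0.11 ± 0.10.

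The 53 other effector genes fitted were divided evenly, 27 above and 26 below, with a median of 0.006. Ly6e, a membrane protein that restricts coronavirus entry, was at 7227, 7706 and 7762 in wild-type samples and 6384, 6724 and 6969 in heterozygous samples. Eif2ak2, the kinase PKR that halts translation on double-stranded RNA, was at 295, 301 and 285 against 250, 235 and 256. Ly6e and Eif2ak2 were lower in every heterozygous sample, at log2 fold changes of -0.18 ± 0.05 and -0.25 ± 0.09 (SE; limma-trend adjusted p = 0.85 and 0.93). Ifit2, the neighbour of Ifit3 in the IFIT cluster, was at 0.07 ± 0.09 (log2 fold change ± SE) with overlap.

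MHC class I and its processing genes had 18 of 20 above, where 50.8% of all genes were above, and a median of 0.11, with 4 wholly above and 1 wholly below (20% and 5%, against 5.15% and 5.3% of all genes). H2-K1, a class I heavy chain, was at 776, 789 and 734 against 906, 928 and 797, and H2-Q4 at 279, 286 and 272 against 322, 303 and 323. Their log2 fold changes were 0.19 ± 0.08 and 0.18 ± 0.09 (SE; limma-trend adjusted p = 0.95 for each). Class I heavy chains form a multigene family, and how far their sequences are shared was not measured. MHC class II genes, which mark microglia, macrophages and other antigen-presenting cells, had 6 of 6 above and a median of 0.36, and each overlapped by itself. The summed level of the 7 class II genes in the table was 451 to 528 in wild-type and 559 to 626 in heterozygous samples, without overlap. The largest part of the sum was H2-DMa, at 308, 270 and 234 against 280, 343 and 296, with overlap. How often sums of other genes separate was not counted. Most markers of some non-neuronal cells were above wild type too (9 of 12 microglial, 9 of 10 endothelial, 10 of 11 pericyte and meningeal, 7 of 8 astrocyte genes). Oligodendrocyte markers were not, with 0 of 8 above. In the microglial, endothelial, pericyte and meningeal, and astrocyte lists, wild-type sample 1 had the lowest mean level of the 6 samples. MHC class II genes were lowest in wild-type sample 3. The part of these cells in the MHC values was not tested. H2-Ab1 and H2-Eb1 were at 0.45 ± 0.24 and 0.38 ± 0.24 (log2 fold change ± SE). The 6 interferon-inducible chemokines in the table, Cxcl10 among them, were all below the mean of 10 and were not fitted; Cxcl10 was at 1.01 to 3.83 normalized counts.

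**Figure D4:**
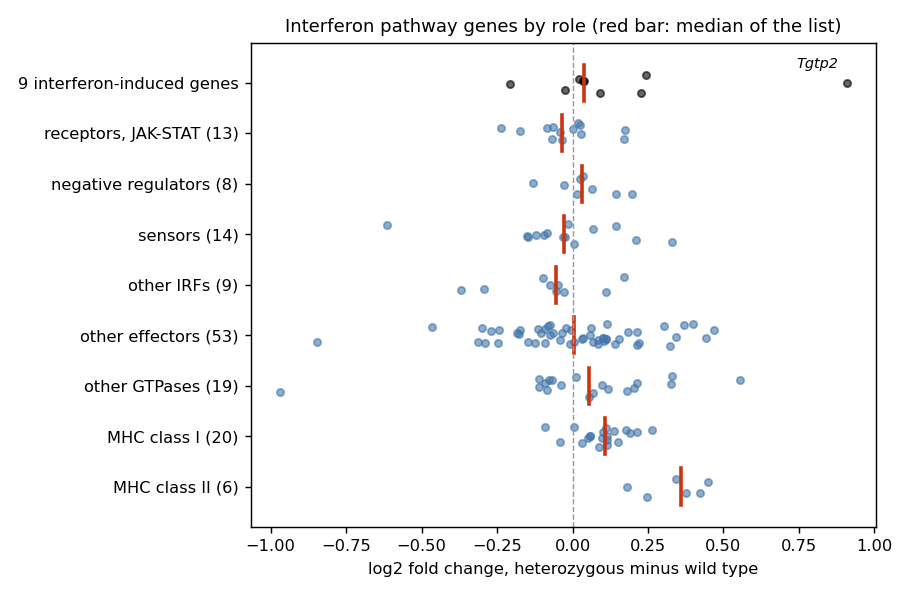
Log2 fold change of each fitted gene, by role, with the number of genes in brackets and the median as a red bar. Tgtp2 at 0.91 is the highest point shown; the list medians lie between -0.05 and 0.36, and the highest is that of the 6 MHC class II genes.

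The values of single samples within a genotype were known when the genes were chosen, so their order is a description. Wild-type sample 1 was the highest wild-type sample in 8 of the 9 genes, all but Irf9. Over all genes fitted this was so in 35%, and in the 142 wider interferon genes in 50 (35.2%). In log2 units sample 1 stood above the wild-type mean by 0.49 in Isg15, 0.37 in Irf7, 0.36 in Tgtp2, 0.28 in Oasl2 and 0.25 in Ifit1, and by 0.01 to 0.07 in Ifit3, Stat2 and Bst2. Wild-type sample 3 was the lowest in 7 of the 9, but the share of all genes in which it was lowest was not counted. Tgtp2 therefore had the same order over the wild-type samples as the mean of the other 8 genes, which deviated by 0.17, -0.05 and -0.12 in samples 1, 2 and 3.

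In heterozygous samples the order was shared only in part: sample 2 was the lowest for Tgtp2 and for the mean of the other 8, but the highest sample differed. Tgtp2 deviated by 0.56, -0.39 and -0.17 in samples 1, 2 and 3, and the mean of the other 8 by 0.02, -0.08 and 0.06. Heterozygous sample 1 was the highest in 5 genes (Tgtp2, Ifit1, Irf9, Bst2 and Oasl2) against 35.3% of all genes, and in Isg15 it was the lowest, at -0.38. Heterozygous sample 2 was the lowest in 6 of the 9, and here too the share of all genes was not counted.

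**Figure D5:**
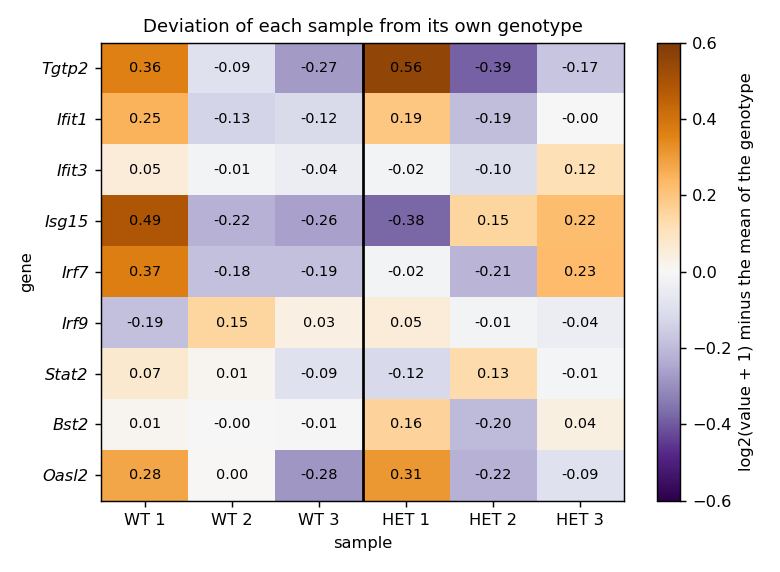
Deviation of each sample from the mean of its own genotype for the 9 genes, in log2(value + 1); orange is above and purple below the mean, and the black line parts the genotypes. The column of wild-type sample 1 is positive in 8 of 9 rows, and the columns of the heterozygous samples mix signs.

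Marker lists of cell types took different directions in wild-type sample 1. There microglial markers were at -0.17, endothelial markers at -0.20 and astrocyte markers at -0.19 in their mean centred log2 level over the 6 samples, the lowest of the 6 samples for each list. Neuronal markers were at 0.04 in that sample, the highest of the 6, and 5 of 8 had their highest wild-type value there. All 12 microglial and all 10 endothelial markers were detected in every sample. The summed microglial level was 13898 to 17272 normalized counts in wild-type and 15608 to 16479 in heterozygous samples, and the summed endothelial level 10854 to 13172 and 12277 to 13408. The median log2 fold change was 0.03 for microglial, 0.06 for endothelial and 0.05 for astrocyte markers. It was 0.09 for pericyte and meningeal markers, with summed levels of 9624 to 12128 in wild-type and 11535 to 12479 in heterozygous samples. Oligodendrocyte markers had 0 of 8 above and a median of -0.14, and neuronal markers 3 of 8 and -0.05. Of the 8 neuronal markers, 1 lay wholly above wild type and 3 wholly below (12.5% and 37.5%, against 5.15% and 5.3% of all genes). Striatal markers had 2 of 6 above and a median of -0.30, with 0 wholly above and 2 wholly below (33.3%). Red cell and leukocyte markers were at 0.09 in wild-type sample 1, 0.12 and 0.11 in heterozygous samples 1 and 2, and -0.15 to -0.02 in the other 3 samples. The part of these cells in the values of the 9 genes was not tested. The wild-type order of depth was also that of Tgtp2, the deepest library being highest in both. Implied depths of heterozygous samples 1, 2 and 3 were 37.5 M, 35.1 M and 31.9 M reads. There the deepest was again highest in Tgtp2, but sample 2 was lowest in Tgtp2 and sample 3 in depth. The part of depth was not tested.

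Profiles over the 6 samples were compared with that of Tgtp2, which includes the genotype difference it was chosen for. The measure was the root mean square difference between centred log2 profiles, over 13305 genes with a mean of at least 50 outside the 9, a limit that leaves out Tgtp1, Gm5431, Gm12185 and Ifi47. The nearest were Htr2c, the serotonin 2C receptor, at 0.22, then Tmsb15l at 0.26, Rpl14-ps1 at 0.27, Kcne1l at 0.28 and 2810021J22Rik at 0.29, where a flat profile would be at 0.57. Htr2c was at 310, 211 and 187 in wild-type and 441, 260 and 292 in heterozygous samples. Of the other 8 genes, Ifit1 at 0.46 and Ifit3 at 0.47 were nearest to Tgtp2, at ranks 252 and 372 when placed among the genes searched. Stat2 at 0.61, Isg15 at 0.59, Irf9 at 0.58 and Oasl2 at 0.575 were farther from Tgtp2 than a flat profile. Of the 13305 genes searched, 5994 were nearer to Tgtp2 than a flat profile, so most genes were not nearer either. The mean profile of the other 8 genes was nearest to those of Tmem70 at 0.02 and Tspyl3, Pex2, Vps35 and Pms2 at 0.03 each, where a flat profile would be at 0.10. As the mean profile of the 8 is itself nearly flat, 2860 of the genes searched were nearer to it than a flat profile is.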

How the data were processed

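The deposited table holds normalized counts per gene, a signal of the kind DESeq2 gives and not raw counts; the submitters' processing notes name Salmon 0.11.2, R 3.6.0, DESeq2 1.19.11 and GRCm38 without the role of each. Libraries were made with a stranded mRNA kit, per the labels' protocols. Each column was matched to its sample by title. Symbols and gene models came from GENCODE M21 (18122 of 18160 identifiers matched) and upstream sequences from RefSeq (GRCm38.p6).

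The test was limma-trend (limma 3.58.1, R 4.3.3) on log2(value + 1), over 15151 genes with a mean of at least 10, adjusted by Benjamini-Hochberg over all of them with 0.05 as the threshold. Fold changes on this scale understate those of low genes. As the values were normalized, no count model was used. No 2 samples of a genotype agreed within counting noise (mean chi-square per gene 8.45 to 23.2). The procedure was tested on simulated data. Changes were planted there only in genes with a wild-type mean of at least 50, a range without Tgtp2 and Isg15.

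The 9 genes and all lists were chosen with earlier results of these data known. Beyond the 9, genes were named by rule: all fitted GTPases, the 2 smallest p per list, and the 5 nearest profiles. One gene so named is not reported here. Ifit2, Ifit3b, Gm12185, Cxcl10 and the marker genes given were named after their values were seen. Alternatives were pseudocounts of 0.5 and 5, no filter or a mean of 50, TMM rescaling (unweighted), limma without trend or robust, a 0.1 threshold, a block for sample number, and omission of single samples; summing gene pairs, with omission of single samples, was added after seeing the data.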

Additional observations from a re-analysis of the deposited data

How the results depend on the processing

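The count of the 9 genes past the threshold was 0 under all alternatives, as was that of the wider interferon genes. The number of all genes past the threshold was 2; it was 1 with a mean of at least 50, 1 for limma without the trend, and 1 to 4 when each sample was left out, the cause of which was not tested. With a mean of at least 50, Tgtp2 and Isg15 were not fitted. Leaving out each sample, the median log2 fold change of the 9 genes lay between 0.0296 (without heterozygous sample 1) and 0.206 (without wild-type sample 1), that of the 8 without Tgtp2 between 0.02 and 0.13, and that of the wider genes between 0.02 and 0.05. Tgtp2 was at 0.46 when summed with Tgtp1. With the sample number as a replicate block, 2 genes passed, 0 of them among the 9. The medians stayed at 0.04 and 0.03, because a block cannot change fold changes where each number occurs once per genotype. Same-numbered samples deviated together at correlations of 0.13, 0.12 and -0.01, and differently numbered ones at -0.16 to 0.05. Whether the numbers pair the samples was not tested, and the main model did not pair them. Few reads limit Tgtp2 and Isg15 most.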
